A study of Mus musculus with 6 samples.

Results

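The genes described here are 10 genes of cystine uptake, glutathione synthesis, lipid peroxide repair and iron handling, namely Slc7a11, Slc3a2, Gclm, Gclc, Gpx4, Acsl4, Tfrc, Fth1, Ftl1 and Hmox1. They were listed by name for their known roles in ferroptosis, and a gene counted as measured when the platform annotation gave its symbol to a probe of the authors' value table. By this rule, 8 of the 10 genes were measured, by 14 probes, out of 7807 named genes and 13545 tested probes. No probe was named here for Slc3a2 or Gclc, which were not analysed here. The cells were TC-1/A9, an MHC class I-deficient mouse line that grew out of TC-1 tumours in immunized mice. TC-1 itself derives from C57BL/6 lung cells carrying HPV16 E6/E7 and an activated Ha-ras oncogene, so all arrays share these oncogenes and 1 cell line. The groups were 3 arrays of cells given IFNγ at 50 U/ml by the labels and for 24 h, and 3 arrays of untreated cells. The methods of the study state a higher dose for the same experiment and call the cultures biological triplicates.

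Ferroptosis is a form of cell death driven by iron-dependent peroxidation of membrane lipids. Its main brake is the selenoenzyme GPX4, which reduces lipid peroxides with glutathione, and glutathione synthesis depends on cysteine that many cells take up as cystine through system xc, a pair of the SLC7A11 and SLC3A2 proteins. IFNγ is known to lower system xc in some tumours, and the question put to these data was whether the same was seen in TC-1/A9 cells.

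The promoter of Slc7a11 is shown because the question turns on this gene. That of Gclm is shown because it was the only measured listed gene whose arrays did not overlap between the groups. Over all genes, 13.7% did not overlap, in either direction. The promoter of Irf1 is shown because this gene served as the check of the labels. Each line holds the 250 bases before the annotated start, from RefSeq on GRCm38.p6, written 5′ to 3′ on the strand of the gene. Capitals mark matches, on either strand, to TTCNNNGAA (a STAT-binding GAS motif), TGATGNAA (a CARE motif bound by ATF4) or TGACNNNGC (an ARE core bound by NRF2).
Slc7a11, chr3:50443614-50443863, minus strand: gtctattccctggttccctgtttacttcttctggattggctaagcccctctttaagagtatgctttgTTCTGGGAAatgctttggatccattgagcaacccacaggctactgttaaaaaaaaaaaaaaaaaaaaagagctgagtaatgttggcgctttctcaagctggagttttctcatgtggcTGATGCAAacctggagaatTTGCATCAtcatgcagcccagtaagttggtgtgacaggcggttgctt
Gclm, chr3:122245307-122245556, plus strand: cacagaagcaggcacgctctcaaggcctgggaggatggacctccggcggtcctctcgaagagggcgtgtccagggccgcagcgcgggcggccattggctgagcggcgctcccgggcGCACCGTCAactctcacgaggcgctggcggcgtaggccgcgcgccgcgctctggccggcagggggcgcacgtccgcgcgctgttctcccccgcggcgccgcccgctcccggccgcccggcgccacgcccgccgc
Irf1, chr11:53769764-53770013, plus strand: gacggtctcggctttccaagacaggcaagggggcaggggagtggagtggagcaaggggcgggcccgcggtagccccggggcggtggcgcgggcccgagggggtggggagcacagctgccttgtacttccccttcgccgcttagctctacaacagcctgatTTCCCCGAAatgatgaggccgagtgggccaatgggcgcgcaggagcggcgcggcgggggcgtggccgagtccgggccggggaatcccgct

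The Slc7a11 promoter held 1 GAS match, TTCTGGGAA, that began 183 bases before the start. It also held a pair of CARE matches, TGATGCAA at 66 bases and, read on the other strand, TTGCATCA at 47 bases before the start. The ARE match of Gclm, written here as GCACCGTCA and lying on the other strand, began 134 bases before its start. The GAS match of Irf1, TTCCCCGAA, began 90 bases before its start. Promoter windows, from 250 bases before to 50 after a start, were on hand for 8 of the 10 listed genes, and no other listed gene among them held a match to any of these motifs. Over all 32851 promoter windows of the same length, 8.3% held the GAS letters, 3.97% the CARE letters and 12.4% the ARE letters. These matches describe the letters of the windows and not sites in use.

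Irf1, which encodes a transcription factor induced by IFNγ, had log2 signals of 12.53, 12.76 and 12.97 on the IFNγ arrays, against 10.04, 9.81 and 10.00 on the untreated arrays (log2 fold change 2.80, SE 0.13, adjusted p = 6.4e-09, limma with Benjamini-Hochberg adjustment). The arrays of the groups did not overlap for this gene, in the direction that the labels name. Between 11504 and 12423 probes were detected per array, at a detection p of 0.01 or less. The third IFNγ array stood apart: 9.47% of its tested probes lay over 0.5 log2 units from the mean of the other arrays of its group, against 0.0960% to 2.24% on the other 5 arrays. Of the markers of other cells, none of the 5 epithelial, 5 lung epithelial, 4 T and B cell or 3 erythroid genes had a named probe. This can mean an undetected signal or no probe, so a lung epithelial identity could not be checked. Of 6 macrophage and leukocyte markers, 3 were measured (Csf1r, Cd14 and Cd68), with summed linear signals of 386 to 464 on the IFNγ arrays and 400 to 428 on the untreated arrays. Only Cd14 was detected on every array. Csf1r lay at 1.32 to 1.58 and Cd68 at 1.40 to 1.91 times background, so background is part of these sums. Of 5 mesenchymal markers, Vim and Pdgfra were measured and detected on all 6 arrays. Vim lay at 157 to 229 times background, but Pdgfra at only 1.42 to 2.51 times. Of 3 endothelial markers, Kdr was measured, at 64.1 to 76.8 on the IFNγ arrays and 66.1 to 90.1 on the untreated arrays. Its intensity was 1.30 to 1.74 times background, and it was detected on 1 of 3 IFNγ arrays and 2 of 3 untreated arrays. The part of such other cells in the results was not tested. In such bulk RNA, fewer cells of a type and less RNA per cell cannot be told apart.

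None of the 8 measured genes was called higher or lower at an FDR below 0.01, a rule that called 1.36% of all 7807 genes and 143 of 13545 probes (1.06%, with 1.04% higher and 0.0148% lower). None of the 8 reached an unadjusted p below 0.05 at its brightest probe either, against 8.49% of all genes, and none passed an FDR below 0.05, against 1.67% of all genes. At that probe, 5 of the 8 had a positive and 3 a negative log2 fold change, between -0.18 for Gpx4 and 0.23 for Tfrc. Their median was 0.04, against -0.02 over all genes, and their median size, regardless of sign, was 0.13, against 0.10 over all genes. The adjusted p-values ran from 0.734 to 0.948. The 95% confidence intervals differed between the genes, reaching down to 0.726-fold for Gpx4 and up to 1.50-fold for Hmox1, and after background correction with neqc to 0.697-fold and 1.70-fold for the same genes. The narrowest reached from 0.819-fold to 1.11-fold (Slc7a11), 0.880-fold to 1.21-fold (Acsl4) and 0.958-fold to 1.29-fold (Gclm) on the deposited scale. The Slc7a11 probe lay at only 1.52 to 1.90 times background, which shrinks its changes on that scale. After neqc its interval reached from 0.747-fold to 1.14-fold. Changes inside a gene's own interval were not excluded. All p-values measure the spread between these cultures of 1 cell line.

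**Figure D1:**
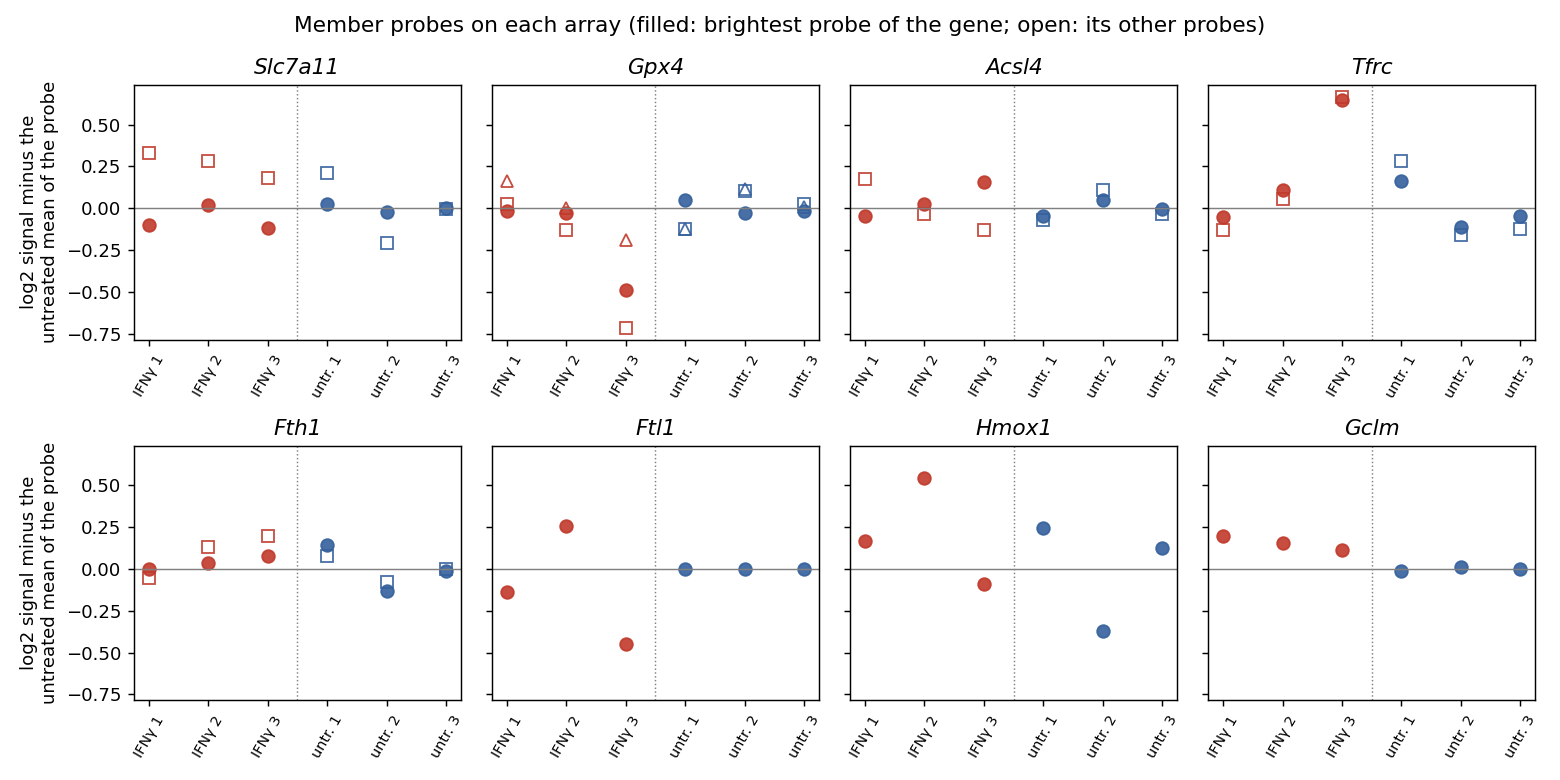
Log2 quantile normalized signal minus the untreated mean of the same probe, for the 8 measured genes, with 3 IFNγ arrays left of 3 untreated arrays. Each point is 1 probe on 1 array, filled for the brightest probe of a gene and open for its other probes. At the brightest probe, the arrays overlap between the groups for 7 genes, whereas 13.7% of all genes do not overlap, in either direction. For Gclm the IFNγ arrays lie above the untreated arrays (log2 signals of 8.87 to 8.96 against 8.75 to 8.77 before the subtraction).

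Slc7a11, the cystine and glutamate exchanger of system xc, was measured by a pair of probes that lay close to background. Its brighter probe, ILMN_2740738, had log2 signals of 6.25, 6.37 and 6.23 on the IFNγ arrays, against 6.37, 6.33 and 6.35 on the untreated arrays. The groups overlapped, with the second IFNγ array at the level of the untreated ones. Its log2 fold change was -0.07 (SE 0.10, 95% confidence interval -0.29 to 0.16, adjusted p = 0.892, limma), which bounds a decrease at 0.819-fold on the scale of the deposited intensities. The deposited intensities were 80.5, 74.5 and 73.3 on the IFNγ arrays and 99.0, 79.3 and 74.1 on the untreated arrays. These are 1.52 to 1.90 times the background level of each array, and the probe was detected on all 6. Probes with a detection p near 0.5 still had median deposited intensities of 46.5 to 52.1, so this level is part of the signal. After background correction with neqc, the log2 fold change was -0.12, with an interval from 0.747-fold to 1.14-fold. That correction adds an offset of 16 to each intensity, which shrinks the fold changes of dim probes. The limits after neqc are therefore not free of such shrinkage.

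The other Slc7a11 probe, ILMN_2948143, gave the opposite sign. Its log2 signals were 6.50, 6.45 and 6.35 on the IFNγ arrays, against 6.38, 5.96 and 6.16 on the untreated arrays, so the lowest IFNγ array lay below the highest untreated one. The probe was detected on 3 of 3 IFNγ arrays and on 1 of 3 untreated arrays. Gene names were on hand only for probes detected on 2 or more arrays within a group, so this probe was named only through the IFNγ group, where it is higher, and its values are given as a description. Its log2 fold change was 0.26 (SE 0.12, unadjusted p = 0.0497, adjusted p = 0.638, limma). After neqc it was 0.48, with an interval of 0.08 to 0.88 and an adjusted p of 0.491. This was the only one of the 14 probes with an unadjusted p below 0.05, against 7.8% of all tested probes. With the mean of both probes the log2 fold change of Slc7a11 was 0.10 (adjusted p = 0.787), and its positive sign comes from this second probe. For system xc, a decrease of Slc7a11 mRNA was not detected by the brighter probe, within the limits given above for it. The other probe could hardly show one. The mean log2 signals of these probes were 6.32 and 6.30, so the choice of the brighter one rests on a small difference. They lay at 1.52 to 1.90 and 1.29 to 1.97 times background, so either could show only part of a decrease. The partner chain Slc3a2 was not analysed here.

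**Figure D2:**
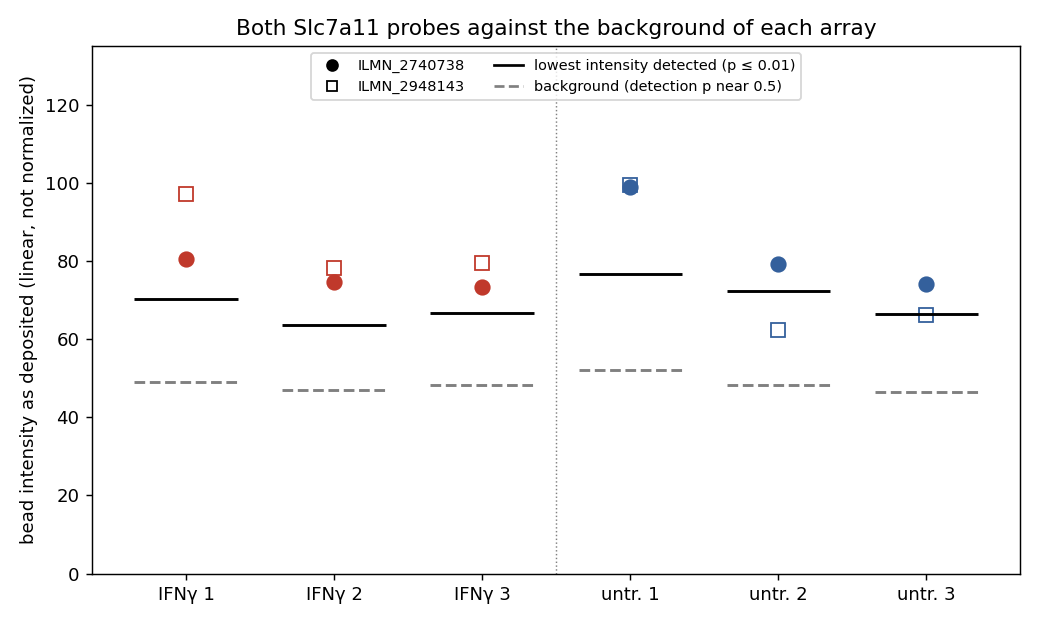
Deposited intensity of the Slc7a11 probes on a linear scale on each array, IFNγ arrays left of untreated arrays, with the background level and the lowest intensity detected on that array drawn as lines. The brighter probe lies at 1.52 to 1.90 times the background level of its array on all 6 arrays, and the other probe was not detected on 2 untreated arrays.

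Gclm, the modifier subunit of the enzyme that makes the glutathione precursor gamma-glutamylcysteine, had log2 signals of 8.96, 8.92 and 8.87 on the IFNγ arrays, against 8.75, 8.77 and 8.76 on the untreated arrays. Every IFNγ array lay above every untreated array, which held for 6.44% of all genes in this direction. In either direction, 13.7% of all genes did not overlap. Gclm nevertheless did not pass the test (log2 fold change 0.16, SE 0.10, interval -0.06 to 0.37, adjusted p = 0.734, limma). Its log2 fold change lay between 0.13 and 0.18 with each array left out in turn.

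Gpx4, the lipid peroxide reductase, had log2 signals of 12.34, 12.32 and 11.86 on the IFNγ arrays, against 12.40, 12.32 and 12.34 on the untreated arrays. Only the third IFNγ array lay below the rest. Gpx4 had a log2 fold change of -0.18 (SE 0.13, interval -0.46 to 0.11, adjusted p = 0.763, limma), and -0.02 without that array. The second probe, ILMN_3100812, had log2 signals of 8.87, 8.71 and 8.13 on the IFNγ arrays, against 8.72, 8.95 and 8.87 on the untreated arrays. Its log2 fold change of -0.27 (adjusted p = 0.707) became -0.05 without the third IFNγ array. The third probe, ILMN_3027761, was detected on 2 of 3 arrays in each group and had a log2 fold change of -0.01.

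Acsl4, an acyl-CoA synthetase that supplies the polyunsaturated lipids that are peroxidized in ferroptosis, showed one of the smallest differences of the listed genes. Its log2 signals were 7.62, 7.69 and 7.82 on the IFNγ arrays, against 7.62, 7.71 and 7.66 on the untreated arrays. The log2 fold change was 0.04 (SE 0.11, interval -0.18 to 0.27, adjusted p = 0.935, limma), and its sign turned without the third IFNγ array (-0.01). A dim second probe, ILMN_1244872, was detected on 2 of 3 IFNγ arrays and 3 of 3 untreated arrays and had an adjusted p of 0.996.

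Among the iron genes, Tfrc encodes the transferrin receptor that brings iron into the cell. Its log2 signals were 12.58, 12.74 and 13.28 on the IFNγ arrays, against 12.80, 12.52 and 12.58 on the untreated arrays. The third IFNγ array was the highest and the first untreated array the next. Tfrc had a log2 fold change of 0.23 (SE 0.16, interval -0.11 to 0.58, adjusted p = 0.746, limma). It was 0.03 without the third IFNγ array and 0.38 without the first IFNγ array. The second Tfrc probe, ILMN_2860804, had a log2 fold change of 0.20 (adjusted p = 0.806). Its values were -0.04 without the third and 0.36 without the first IFNγ array.

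The ferritin chains, which store iron, gave strong signals on every array. Fth1, the heavy chain, had log2 signals of 14.57, 14.61 and 14.65 on the IFNγ arrays, against 14.72, 14.44 and 14.56 on the untreated arrays. The untreated arrays spanned the IFNγ arrays, and the log2 fold change was 0.04 (SE 0.11, interval -0.20 to 0.27, adjusted p = 0.948, limma). With centring on the 75th percentile in place of quantile normalization it was -0.08, so no direction can be given for Fth1. Its second probe, ILMN_2876071, had a log2 fold change of 0.09 (adjusted p = 0.859). Ftl1, the light chain, had log2 signals of 11.04, 11.43 and 10.73 on the IFNγ arrays, against 11.18 on each of the 3 untreated arrays. The IFNγ arrays lay on both sides of the untreated level. Ftl1 had a log2 fold change of -0.11 (SE 0.15, interval -0.43 to 0.21, adjusted p = 0.879, limma). It was 0.06 without the third IFNγ array and -0.29 without the second IFNγ array. Ferritin genes have near-identical copies in the mouse genome, and whether these probes also read them was not tested.

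Hmox1, the heme oxygenase that frees iron from heme, had the largest SE of the 8 genes at the brightest probe. Its log2 signals were 7.27, 7.65 and 7.02 on the IFNγ arrays, against 7.35, 6.74 and 7.23 on the untreated arrays. Both groups spanned a wide range and overlapped, and Hmox1 had a log2 fold change of 0.21 (SE 0.17, interval -0.17 to 0.58, adjusted p = 0.780, limma), with a range of 0.02 to 0.35 when single arrays were left out.

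**Figure D3:**
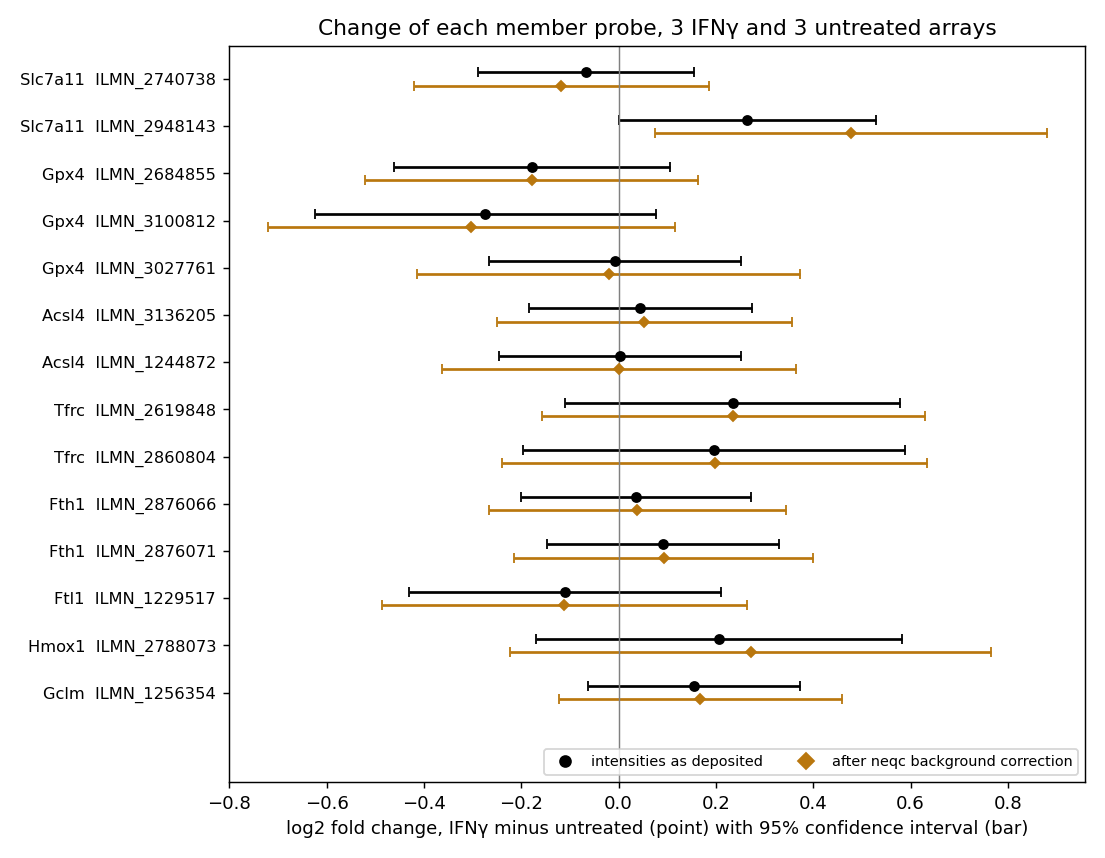
Log2 fold change of each of the 14 probes, IFNγ minus untreated, with its 95% confidence interval, from the intensities as deposited (black) and after neqc background correction (brown), over 3 IFNγ and 3 untreated arrays. The intervals of 13 probes include 0 on the deposited scale, and the remaining one, ILMN_2948143 of Slc7a11, was not detected on 2 of the 3 untreated arrays.

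On the third IFNγ array, which stood apart over all probes, Tfrc lay 0.62 above the mean of the other IFNγ arrays, while Ftl1 lay 0.51, Gpx4 0.47 and Hmox1 0.44 log2 units below it. For Slc7a11 and Gclm the distances were 0.08 and 0.07 log2 units below that mean. The cause of this spread was not tested.

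**Figure D4:**
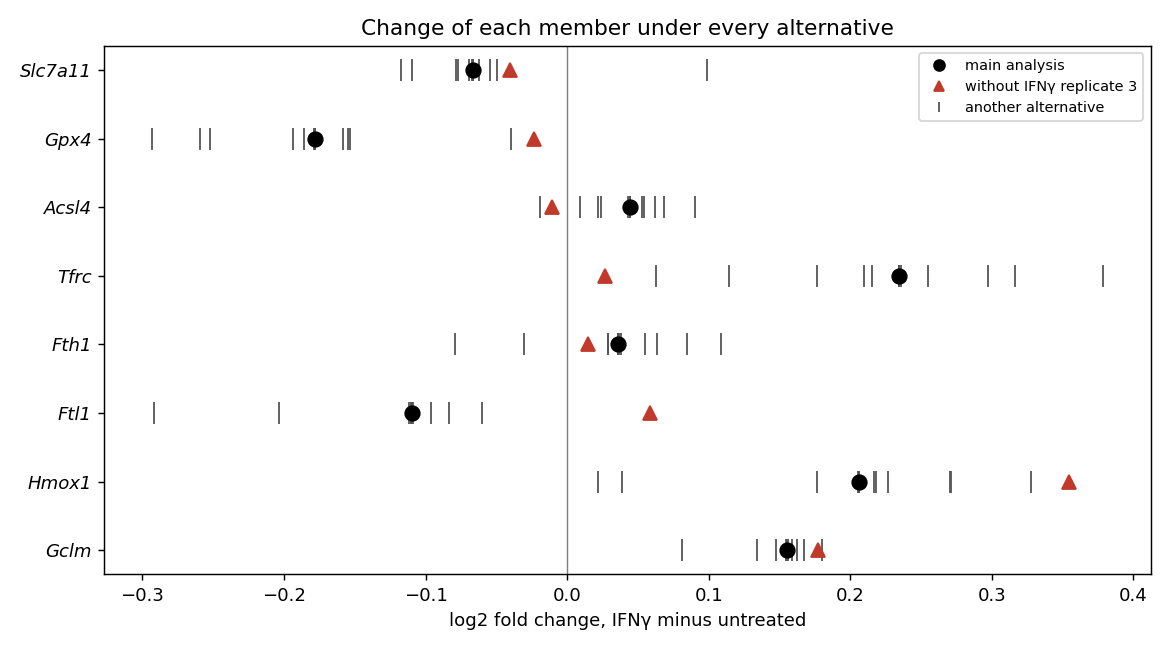
Log2 fold change of the brightest probe of each measured gene, IFNγ minus untreated, under each processing alternative, with the main setting and the setting without the third IFNγ array marked. Gclm stays between 0.08 and 0.18, whereas Tfrc (0.03 to 0.38), Ftl1 (-0.29 to 0.06), Hmox1 (0.02 to 0.35), Gpx4 (-0.29 to -0.02), Slc7a11 (-0.12 to 0.10) and Fth1 (-0.08 to 0.11) spread more widely, and Ftl1, Slc7a11, Fth1 and Acsl4 (-0.02 to 0.09) change sign.

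No gene of 5 related lists was called at an FDR below 0.01. At an unadjusted p below 0.05, which 8.49% of all genes passed, the list of NRF2 and its targets held 3 genes and each of the other lists 1. Of 15 further genes of glutathione and cysteine supply, 6 were measured, with a median log2 fold change of -0.05. Chac1, which degrades glutathione, had log2 signals of 9.01, 9.27 and 9.09 on the IFNγ arrays, against 8.84, 8.82 and 8.67 on the untreated arrays. The groups did not overlap, as for 6.44% of all genes in this direction, and the log2 fold change was 0.35 (SE 0.11, adjusted p = 0.311, limma). The brightest genes of this list, the peroxidases Gpx1 and Prdx1, had log2 fold changes of -0.16 (adjusted p = 0.771) and -0.02 (adjusted p = 0.982).

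Of 23 genes of ferroptosis lipids and suppressors, 15 were measured, with a median of 0.01. Dhodh, the mitochondrial enzyme of pyrimidine synthesis that also reduces ubiquinone, had log2 signals of 7.76, 7.35 and 7.36 on the IFNγ arrays, against 7.85, 8.06 and 7.79 on the untreated arrays. Each IFNγ array lay below each untreated array, as for 7.26% of all genes, and the log2 fold change was -0.41 (SE 0.13, adjusted p = 0.301, limma). The oxidoreductase Cyb5r1 had a log2 fold change of -0.16 (adjusted p = 0.768), and the brightest genes, Vkorc1l1 and Vdac3, had values of 0.01 and 0.13.

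Of 33 further iron genes, 19 were measured, with a median of -0.01. Fbxl5, an iron-sensing ubiquitin ligase subunit, had log2 signals of 7.02, 7.13 and 7.37 on the IFNγ arrays, against 6.88, 6.75 and 6.95 on the untreated arrays (log2 fold change 0.31, SE 0.12, adjusted p = 0.491, limma). The iron transporter Slc11a2 had a log2 fold change of 0.21 (adjusted p = 0.671), and the iron chaperones Pcbp1 and Pcbp2 had values of 0.09 and -0.01.

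NRF2, which switches on Gclm, Slc7a11 and Hmox1, and ATF4, which switches on Slc7a11, were followed through 17 genes each, of which 14 each were measured. The medians were -0.05 for NRF2 and its targets and 0.03 for ATF4 and its targets. In the NRF2 list, Gsta4, a glutathione transferase at 1.31 to 1.86 times background and detected on 2 of 3 IFNγ arrays and 3 of 3 untreated arrays, had a log2 fold change of -0.31 (adjusted p = 0.373). After neqc it was -0.56 (interval -0.88 to -0.25, adjusted p = 0.114). The transferase Gstp1 had a log2 fold change of -0.25 (adjusted p = 0.602), and Keap1, the inhibitor of NRF2, of 0.24 (adjusted p = 0.601). Taldo1, an enzyme of the pentose phosphate pathway, had a value of -0.07. In the ATF4 list, Cebpb had a log2 fold change of 0.35 (adjusted p = 0.607), Trib3 of 0.23 (adjusted p = 0.641) and Eif4ebp1 of -0.21 (adjusted p = 0.811).

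**Figure D5:**
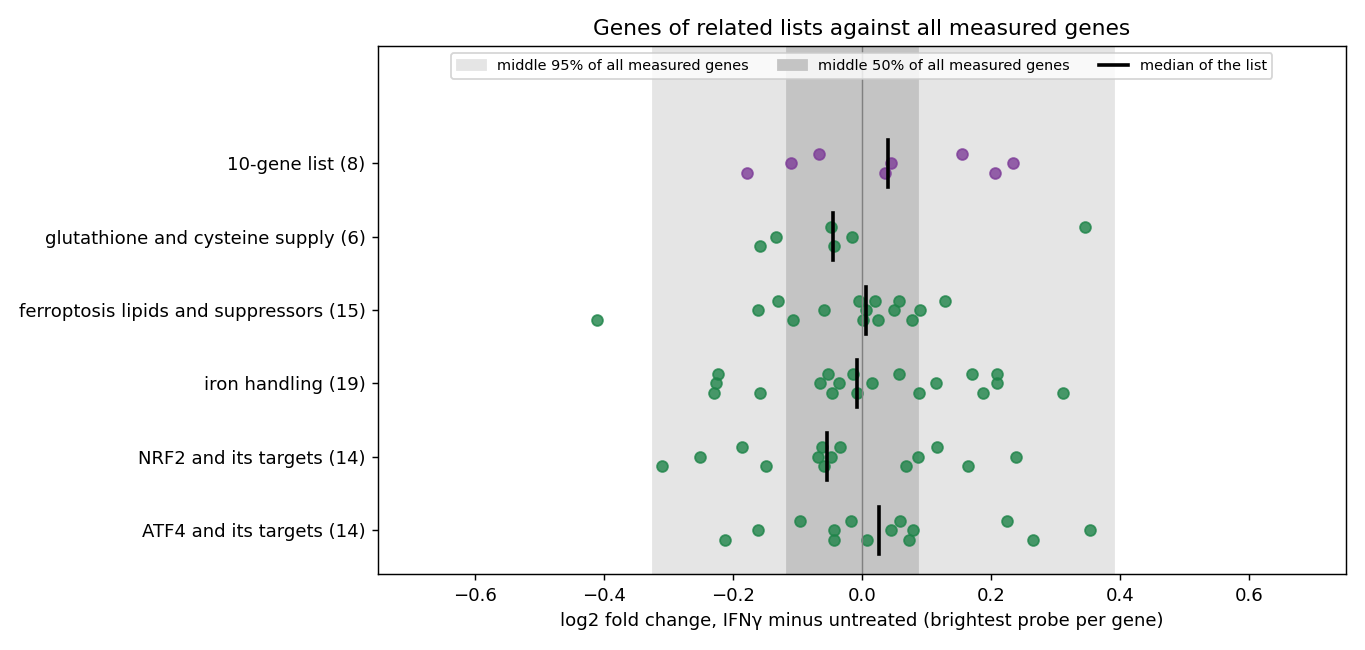
Log2 fold change, IFNγ minus untreated, of the brightest probe of each measured gene in the 10-gene list and in 5 related lists, 1 point per gene, with the list's median as a bar and the number measured in brackets. The shaded bands hold the middle 50% and 95% of all 7807 genes, and all 8 measured genes of the 10-gene list lie inside the wider band, from -0.32 to 0.39.

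The genes whose log2 signal over the 6 arrays was most like that of the brighter Slc7a11 probe were Ikbkg (Pearson r 0.993), Sdhaf4 (0.991) and Vegfa (0.988), the highest of 7806 genes searched. All 6 arrays were shared by these values, 74 genes had an r above 0.9, and the likeness is a description only.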

How the data were processed

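Illumina Mouse WG6 bead arrays were run on RNA of TC-1/A9 cells with and without IFNγ, 3 per group. The authors deposited linear, unnormalized bead intensity values, and for each of them a detection p-value against the negative controls of the array. The authors also deposited a log2 value table of 12421 probes, made by their account with lumi and limma. Quantile normalized log2 intensities matched this table to within 4.97e-14. The column of the first untreated array had a median of 7.56. The table was used as an alternative and for gene names. How background was treated before deposit is not given in the sources used, but probes with a detection p near 0.5 had median intensities of 46.5 to 52.1.

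Intensities were quantile normalized over 45281 probes and taken to log2. As in the study's methods, the 13545 probes whose detection p was 0.01 or lower on 1 or more arrays were tested with limma 3.58.1 in R 4.3.3 (lmFit, eBayes), calling at an FDR below 0.01 (Benjamini-Hochberg, over all tested probes). The fit was tested on simulated data. Of the 12421 probes, 11180 had 1 symbol, 0 several and 1241 none; 9809 symbols were matched by Entrez ID, 729 by accession, 389 by synonym, and 253 were kept as listed. A gene's value is that of its brightest probe. The number of arrays limits the precision.

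The members and lists were chosen with earlier results of these data known. Named were all members and their probes, in each related list every called gene or otherwise the 2 of lowest p and the 2 brightest, Irf1 as the check of the labels, and the 3 genes most correlated with Slc7a11. Marker genes and genes that the text gives for the array check follow fixed lists. Alternatives were 2 background corrections, 2 normalizations, the value table, 3 filters, other variance models, a replicate block, each array left out, 2 thresholds, the mean of a gene's probes and the listed symbols. Probe sequences were not used here.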

Additional observations from a re-analysis of the deposited data

How the results depend on the processing

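No listed gene was called in either direction under any of 21 alternatives, and 266 of 282 probe values kept their sign. The other 16 turned, all of them values that were not called and most near 0. Many of the 266 could not turn. The authors' values, the filters, the thresholds, the listed symbols, the trended, robust fit and the replicate block leave each log2 fold change unchanged. With centring on the 75th percentile, the log2 fold changes were -0.079 for Fth1, -0.037 for its probe ILMN_2876071 and 0.0069 for Gpx4 probe ILMN_3027761. The last was 0.019 with cyclic loess and 0.088 with array weights, which also gave -0.019 for Acsl4. With the mean of its probes, Slc7a11 had 0.099, a sign set by a probe not detected on 2 untreated arrays. With each array left out in turn, the ranges were -0.011 to 0.090 for Acsl4, -0.083 to 0.071 for its probe ILMN_1244872, -0.030 to 0.11 for Fth1, -0.29 to 0.059 for Ftl1, -0.095 to 0.082 for Gpx4 probe ILMN_3027761 and -0.039 to 0.36 for Tfrc probe ILMN_2860804. The Slc7a11 probe ILMN_2948143 kept a positive value, 0.16 to 0.48, with a lowest adjusted p of 0.049 under array weights (limma). This probe was named only through the IFNγ group, where it is higher, so its sign and p-value are a description only. Over all probes, the 141 higher calls were 78 with the 75th percentile, 74 among probes detected on all 6 arrays, 248 with array weights, 71 when a change of 1 log2 unit was also required, and 83 to 172 with an array left out (92 without the first and 83 without the third untreated array). The 2 lower calls were 1 with neqc, among probes detected on all 6 arrays and with a trended, robust fit, 0 with the 75th percentile and the added fold limit, 35 with array weights, 7 at an FDR below 0.05, and 0 to 6 with an array left out. The cause was not tested, except that fewer probes or samples entered where the setting says so. Same-numbered arrays did not deviate together (r of -0.19, 0.04 and -0.02), and arrays of different numbers had r of -0.16 to 0.21. These deviations cannot show whether the cultures were prepared in pairs. With the replicate block, Slc7a11 had -0.07, 145 probes were higher and 3 lower, and no listed gene was called. Low signal over background limits the Slc7a11 probes, and 11 of the 14 probes were detected on all 6 arrays.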
